A study of Homo sapiens with 39 samples.

Results

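The cholesterol synthesis and SREBP pathway was followed through 31 genes chosen by name in HCT116 cells, a human colorectal cancer line, among the 45435 genes of the deposited tables. The list held the enzymes that build cholesterol from acetyl-CoA units, the proteins that sense sterols and release the SREBP transcription factors, 3 genes of sterol uptake, transport or storage, and 4 enzymes of fatty acid synthesis. Of the 31 genes, 30 averaged 1 TPM or more across all 39 libraries and were tested among 15003 genes. TPM is a share of the library's transcripts corrected for transcript length, so TPM levels can be set side by side between genes.

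The 39 libraries formed 13 groups of 3. The parental group (the Empty Control of the labels) was the Flp-In host line with no HNF4A construct. Each other group was 1 stable Flp-In T-REx line with a single inserted copy of 1 isoform of hepatocyte nuclear factor 4 alpha, a nuclear receptor that drives liver and gut genes, fused at its C-terminus to GFP (HNF4alpha1-GFP to HNF4alpha12-GFP, here isoforms 1 to 12). All 13 groups, the parental cells included, received 2.5 µg/ml doxycycline for 48 h without selection antibiotics. Before that, every group had been kept in blasticidin S at 5 µg/ml, the parental cells also in zeocin at 100 µg/ml and the 12 lines in hygromycin B at 100 µg/ml. All cells grew in DMEM with serum, which supplies cholesterol. No group made GFP alone, so the isoform, the GFP tag, the earlier antibiotic and the derivation of each line cannot be told apart. Nothing in the labels says that the 3 libraries of a line came from separate cultures, so the p-values measure the spread between libraries, which may be technical. The comparison of each line with the parental cells asks how 1 isoform changes the transcriptome.

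Cells make cholesterol in steps. The mevalonate enzymes build the isoprene unit, FDPS joins these units, FDFT1, SQLE and LSS make lanosterol, and a last set of enzymes trims lanosterol to cholesterol. SREBP-2, encoded by SREBF2, is the main activator of these genes, and SREBP-1, encoded by SREBF1, acts more on fatty acid synthesis. Both are held in the endoplasmic reticulum by SCAP and the INSIG proteins while sterols are plentiful, and when sterols fall they are carried to the Golgi and cut free. SREBPs act at promoters together with NF-Y, which binds CCAAT boxes.

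The promoters of 3 of the genes with the largest differences, MSMO1, MVD and DHCR7, are shown because CCAAT boxes recur in them. The search gave no CCAAT match for PMVK, which had a log2 fold change of 0.58 in isoform 2, and none of its sequence is printed. RefSeq promoter windows (GRCh38.p14) were found for 27 of the 31 genes, 38 windows in all, and their 250 bases upstream of the start were searched on both strands. Of each window shown, the longest stretch outside any GENCODE v29 exon is printed, 5′ to 3′ in the gene's direction, and capitals mark CCAAT or its reverse complement. DHCR7 has another window, further upstream, whose exon-free stretch of 250 bases holds no CCAAT, and only the window with matches is printed. The stretch of MSMO1 lies at chr4:165327419-165327622 on the plus strand and holds 3 of the 4 matches of its window. That of MVD lies at chr16:88663162-88663297 on the minus strand and that of DHCR7 at chr11:71448436-71448643 on the minus strand.
MSMO1: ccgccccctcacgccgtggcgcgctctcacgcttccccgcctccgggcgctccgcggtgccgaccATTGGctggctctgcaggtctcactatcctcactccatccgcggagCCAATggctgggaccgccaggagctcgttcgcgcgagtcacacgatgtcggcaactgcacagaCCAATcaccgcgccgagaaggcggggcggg
MVD: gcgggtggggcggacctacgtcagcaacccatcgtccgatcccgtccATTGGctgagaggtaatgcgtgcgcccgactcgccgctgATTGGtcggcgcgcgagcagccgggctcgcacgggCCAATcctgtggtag
DHCR7: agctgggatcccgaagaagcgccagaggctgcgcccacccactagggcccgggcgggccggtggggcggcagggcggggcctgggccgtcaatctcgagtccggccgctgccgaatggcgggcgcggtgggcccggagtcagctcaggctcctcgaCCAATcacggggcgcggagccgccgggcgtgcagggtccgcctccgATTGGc

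CCAAT was present in 26 of the 38 windows, in 22 genes, against 32% of all 35116 windows of the same length. The sterol regulatory element core TCACNCCAC was found in 1 window, that of SREBF2, against 0.883% of all windows. An HNF4-type element, CAAAGTCCA, was found in 1 window of HMGCS1, 40 to 48 bases upstream of the start, against 0.325% of all windows. The E-box CACGTG, which reads the same on both strands, was found in 4 windows, of SC5D, INSIG1 and SCAP, against 6.34% of all windows. No match of 1 motif shared bases with a match of another motif in these windows. A match describes the letters in these windows and no binding was measured.

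HNF4A itself averaged 31.5 TPM ± 0.589 (SD, n = 3) without a construct, against 613.5 to 1071 TPM in the 12 lines, and it was called higher in all 12 by limma. Replicate 1 of isoform 3 stood apart with 406.9 TPM of HNF4A, where replicates 2 and 3 had 833.5 and 771.8 TPM, and it had the lowest correlation with its own group, 0.99. The epithelial markers EPCAM, KRT8, KRT18, KRT19 and CDH1 were above 20 TPM in all 39 libraries. Of 9 markers of other cell types, PTPRC, CD3E, COL1A2 and DCN were at most 0.296 TPM and VWF and ALB at most 0.659 TPM, while CD68 (3.1 to 34.7 TPM), COL1A1 (7.76 to 14.9 TPM) and PECAM1 (1.15 to 6.43 TPM) were present in all 39 libraries. The sum of these 9 markers ran from 17.9 to 21.4 TPM in the parental cells and isoforms 5 and 6, and from 46.8 to 53.4 TPM in isoforms 1 and 2, with CD68 alone at a mean of 3.85 TPM in the parental cells and 33.0 TPM in isoform 1, and its part in the results was not tested. The replicate number moved with the pathway genes: in 10 of the 11 groups with numbers, more than 15 of the 30 genes were highest in replicate 2 (24 of 30 in the parental cells), and in isoform 8 only 2 were.

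Differences of the pathway genes from the parental cells were small. A gene was called at a limma adjusted p under 0.05 and a log2 fold change of at least 0.5 (1.41-fold). By this rule 10 of 360 gene-line pairs were called, 9 higher and 1 lower, in 5 of the 30 genes tested, while 28% of all genes were called in at least 1 line. The authors' deposited table gave the same direction for all 10 pairs, each with its adjusted p below 0.05. Other pairs, not called here, also passed both limits in that table. Among them were PMVK in isoform 1 (0.64), MVK in isoform 2 (0.58) and EBP in isoform 3 (0.56). No gene of the pathway was called at a minimum log2 fold change of 1, where 4.52%, 3.73%, 0.807%, 0.54%, 0.293%, 0.247%, 2.08%, 1.41%, 0.827%, 1.44%, 1.7% and 0.573% of all genes were called in isoforms 1 to 12. MSMO1 in isoform 2 came close at 0.98. It was over 1 in the authors' deposited table (1.10), after scaling the libraries by the median of ratios (1.10) and without parental replicate 2 (1.06). Isoforms 1 and 2 had 2 called genes each, where 20.3% and 16.4% of all genes were called. Isoforms 3, 4, 5, 10, 11 and 12 had 1 each, where 3.93%, 2.82%, 2.03%, 7.15%, 8.22% and 2.53% of all genes were called. Isoforms 6, 7, 8 and 9 had 0 called genes by limma, where 1.34%, 9.32%, 6.32% and 4.2% of all genes were called. At an unadjusted limma p under 0.05, isoforms 6, 7, 8 and 9 had 14, 18, 18 and 20 of the 30 genes, where 23.1%, 46.9%, 43.1% and 33.6% of all genes were under that p. With no minimum fold change, and a limma adjusted p under 0.05, the direction differed between lines.

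In isoform 5, 18 of the 30 genes were lower than in the parental cells and 1 was higher, while 5.22% of all genes were lower and 9.57% higher. In isoform 11, 19 were higher and 3 lower, while 14.5% of all genes were higher and 24% lower. Isoform 9 had 17 higher and 1 lower (10.9% and 11.8% of all genes) and isoform 7 had 15 higher and 2 lower (13.4% and 26.2%). Isoform 8 had 14 higher and 3 lower (16.9% and 17.5% of all genes) and isoform 3 had 13 higher and 0 lower (11.2% and 14.7%). Isoform 1 had 12 higher and 2 lower (19.8% and 38.7% of all genes) and isoform 2 had 10 higher and 5 lower (19.7% and 35.6%). Isoform 12 had 9 higher and 2 lower (7.92% and 6.65% of all genes) and isoform 10 had 7 higher and 3 lower (17% and 20.4%). Isoform 4 had 4 higher and 2 lower (6.26% and 10.1% of all genes), and isoform 6 had 3 higher and 2 lower (5.94% and 4.13%). The lower count of isoform 5 stayed between 16 and 18, and the higher count of isoform 11 between 17 and 22, under every alternative tried and without any 1 library of the groups compared. A fit with the replicate number as a term was not tried for isoform 5. Its deposited columns are numbered, but its sample labels repeat 1 library name, so no numbers were used. Other counts moved more when 1 library was left out. The higher count of isoform 8 was 7 without parental replicate 1 or 3 or its own replicate 1, and 8 without its replicate 3. That of isoform 12 was 5 without parental replicate 3, that of isoform 4 was 2 without parental replicate 3 and that of isoform 6 was 1 without parental replicate 1 or its own replicate 1. Among the lower counts, isoform 2 went from 5 to 3 without parental replicate 2 or its own replicate 2 or 3. Isoform 11 went from 3 to 1 without parental replicate 2 or its own replicate 2, and to 0 without its replicate 3. The lower count of isoform 8 stayed at 3 and that of isoform 10 ran from 2 to 4. In the other lines, lower counts of 0 to 2 changed by at most 2. Without 1 library, the higher counts of isoforms 1, 2 and 3 ran from 10 to 15, 7 to 10 and 12 to 17. Those of isoforms 7, 9 and 10 ran from 11 to 15, 13 to 20 and 5 to 9. The 12 comparisons share the same 3 parental libraries.

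**Figure D1:**
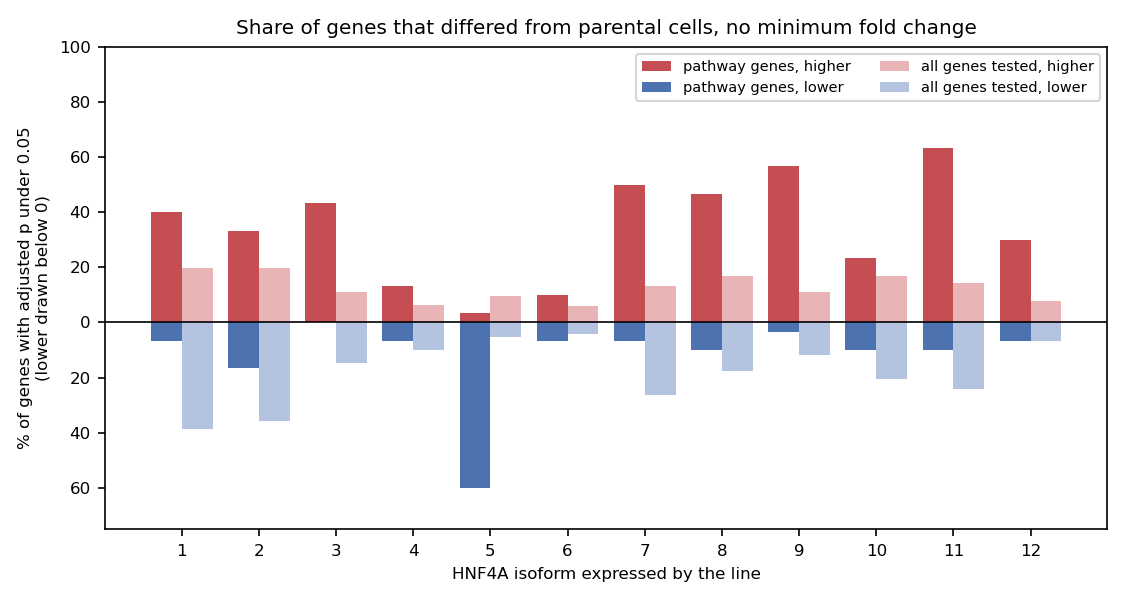
Percent of genes with a limma adjusted p under 0.05 in each line against parental cells, with no minimum fold change, for the 30 tested pathway genes (dark bars) and all 15003 genes tested (pale bars); higher is drawn above 0 and lower below. Isoform 5 has the long dark bar below 0 (18 of 30 genes) and isoform 11 the tallest above it (19 of 30).

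TPM is a share of the library, and in isoforms 1 and 2 the median of all tested genes was -0.11 and -0.09 on the log2 scale. Scaling the libraries by the median of ratios moved that median up by 0.12 and 0.11 and gave splits of 23 higher and 1 lower in isoform 1 and 19 and 2 in isoform 2. The splits on that scale were 20 and 0 in isoform 3, 10 and 0 in isoform 4, 10 and 2 in isoform 10, 22 and 0 in isoform 11 and 14 and 2 in isoform 12, and isoform 5 stayed at 1 and 18. Scaling also moved all genes: over all gene-line pairs the share passing as higher went from 12.8% to 20.1%. The share passing as lower went from 17.9% to 12.9%. Shares of all genes in each line were not worked out on that scale. The median of the 30 genes, on the TPM scale, was lowest in isoform 5 at -0.21, against 0.01 for all genes, and highest in isoform 11 at 0.28, against -0.06. Of the 19 enzymes from acetyl-CoA to cholesterol 18 were tested. Of these 18, 13 were lower and 1 higher in isoform 5, and 16 were higher and 0 lower in isoform 11.

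**Figure D2:**
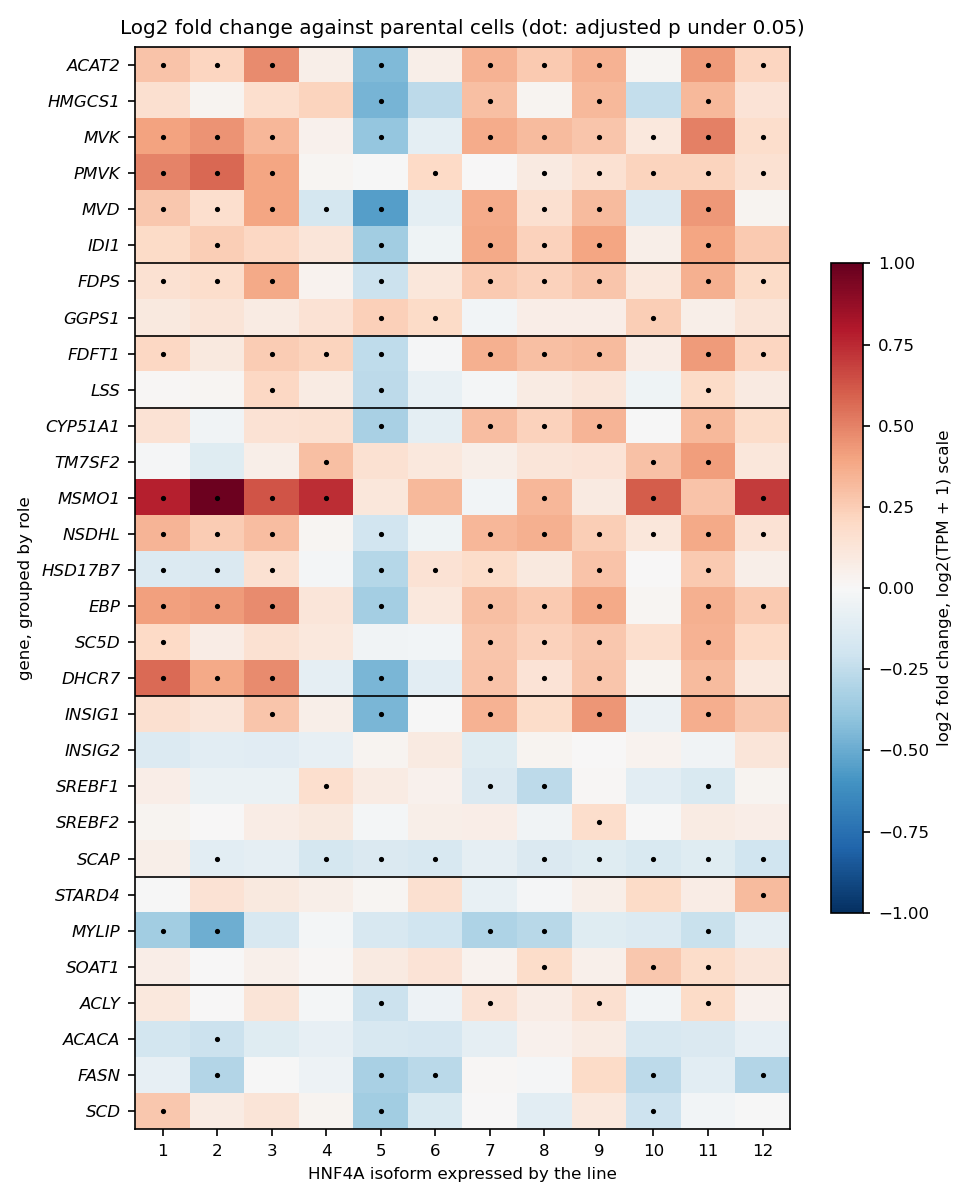
Log2 fold change against parental cells for the 30 tested genes (rows, separated by role) in the 12 lines (columns); red is higher, blue is lower and a dot marks a limma adjusted p under 0.05. The isoform 5 column is blue over most enzymes, and the MSMO1 row is the darkest red, reaching 0.98 in isoform 2.

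The 6 mevalonate enzymes passed the test as higher in 41 of 72 gene-line pairs and as lower in 6. Over all genes tested, 12.8% of gene-line pairs passed as higher and 17.9% as lower, and after median-of-ratios scaling 20.1% and 12.9%. ACAT2 joins acetyl-CoA units at the entry of the pathway. It was 234, 249.9 and 216 TPM in parental cells, 169.1, 175.4 and 169.0 TPM in isoform 5 and 308.8, 335.5 and 324.3 TPM in isoform 3. The 3 groups did not overlap, and the log2 fold change was -0.44 ± 0.07 (SE, limma adjusted p = 6.08e-05) in isoform 5 and 0.47 ± 0.07 in isoform 3. HMGCS1, which makes HMG-CoA, was 148, 172 and 139 TPM in the parental cells, against 114, 117 and 101 TPM in isoform 5. In isoform 11 HMGCS1 was 192, 211 and 174 TPM, all above the parental libraries. HMGCS1 fell by 0.46 on the log2 scale in isoform 5 (SE 0.10, limma adjusted p = 0.00173) and was 0.33 ± 0.10 in isoform 11.

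MVK, the mevalonate kinase, was 50.2, 47.9 and 46.8 TPM in the parental libraries. It was 35.7, 38.0 and 36.8 TPM in isoform 5 and 69.6, 69.5 and 67.7 TPM in isoform 11. Isoform 5 lay below and isoform 11 above every other group mean of MVK. The difference from parental cells was a log2 fold change of -0.38 ± 0.04 in isoform 5 (limma adjusted p = 8.71e-09). In isoform 11 it was 0.51 ± 0.04 (limma adjusted p = 1.71e-12). The latter value sits at the minimum for a call, and it dropped to as low as 0.48, below that minimum, when parental replicate 2 or 3 or isoform 11 replicate 1 or 2 was left out. MVK passed as higher in 9 lines and as lower in isoform 5 only.

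PMVK, the next kinase, followed another order. It was 39.98, 40.07 and 40.58 TPM in the parental cells, against 59.06, 60.05 and 62.26 TPM in isoform 2, a log2 fold change of 0.58 ± 0.04 (limma adjusted p = 2.91e-14). In isoform 5 PMVK was 39.05, 39.76 and 41.5 TPM, which overlaps the parental libraries. It was highest in isoforms 2, 1 and 3, at means of 60.5, 57.0 and 53.2 TPM, and it passed as higher in 9 lines and as lower in none.

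MVD, which makes isopentenyl diphosphate, gave the only call downwards. It was 159.3, 166.2 and 152.2 TPM in the parental cells, against 105.5, 113.3 and 106.2 TPM in isoform 5, 0.683 times the parental level. The groups did not overlap and MVD fell by 0.55 on the log2 scale (SE 0.06, limma adjusted p = 8.7e-08). Isoform 5 had 3 called genes in place of 1 without parental replicate 3 or without 1 of its own libraries. MVD was also lower in isoform 4, by the test without a minimum, at 137.8, 145.9 and 138.1 TPM. It was highest in isoform 11, at 214.6, 223.4 and 208.5 TPM, with a log2 fold change of 0.43 ± 0.06 (limma adjusted p = 6.34e-07). IDI1, the isomerase of the isoprene unit, had a mean of 206.5 TPM in the parental cells, 161.3 in isoform 5 (log2 fold change -0.35 ± 0.09) and 271.7 in isoform 11 (0.40 ± 0.09).

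**Figure D3:**
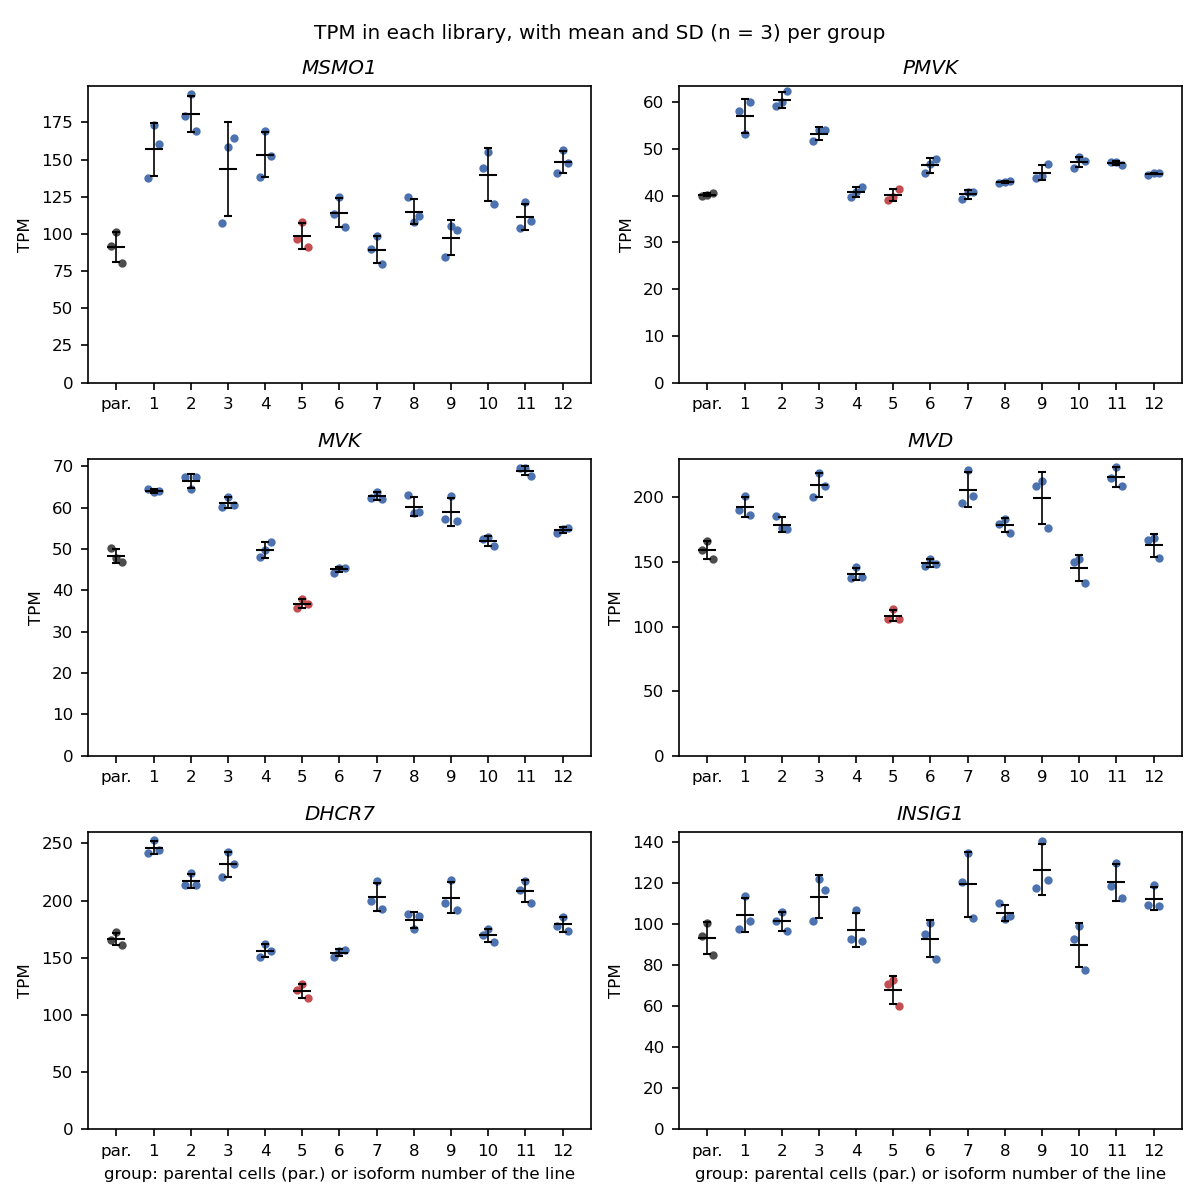
TPM of 6 genes in each library (points) with mean and SD (bars, n = 3) for the parental cells (grey), isoform 5 (red) and the other lines (blue); axes start at 0. Isoform 5 is lowest for MVK, MVD, DHCR7 and INSIG1 but not for MSMO1, where the parental cells and isoforms 5, 7 and 9 are low and isoform 2 reaches 169.4 to 193.8 TPM.

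The prenyl chain enzymes behaved differently from each other. FDPS, which makes farnesyl diphosphate, had a mean of 264.1 TPM in the parental cells, 227.4 in isoform 5 (log2 fold change -0.21 ± 0.05) and 342.8 in isoform 3 (0.38 ± 0.05), and it passed as higher in 8 lines. GGPS1, which makes geranylgeranyl diphosphate for protein prenylation, was the 1 pathway gene that passed as higher in isoform 5, at 25.4, 23.8 and 25.4 TPM against 20.8, 21.3 and 20.7 TPM in the parental libraries (log2 fold change 0.24 ± 0.06, limma adjusted p = 0.00775). GGPS1 ran from -0.03 in isoform 7 to 0.24 in isoform 10 and passed as higher in 3 lines, or in 9 after median-of-ratios scaling.

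FDFT1, squalene synthase, was 376, 405 and 376.5 TPM in the parental libraries. It was 319.9, 340.3 and 311 TPM in isoform 5 and 493, 548 and 512 TPM in isoform 11, with no overlap with the parental libraries in either. The log2 fold changes were -0.25 ± 0.05 (limma adjusted p = 0.00115) and 0.42 ± 0.05 (limma adjusted p = 1.7e-07). LSS, which closes the sterol rings, had a mean of 75.1 TPM in the parental cells, 62.4 in isoform 5 (log2 fold change -0.26 ± 0.05) and 86.7 in isoform 3 (0.21 ± 0.05). LSS passed as higher in 2 lines, or in 7 after that scaling.

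SQLE, squalene epoxidase, was listed at a mean of 0.835 TPM over the 39 libraries and was not tested. Its parental libraries had 0.885, 1.31 and 0.959 TPM, and group means ran from 0.575 TPM in isoform 2 to 1.215 TPM in isoform 9. The enzymes before and after it in the pathway, FDFT1 and LSS, were at 385.9 and 75.1 TPM in the parental cells. In the authors' deposited table SQLE had mean normalised counts between 43.1 and 56.1 and no adjusted p under 0.05.

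From lanosterol to cholesterol, 48 of 96 gene-line pairs passed as higher and 7 as lower. MSMO1, the sterol C4-methyl oxidase, held 6 of the 10 calls. The parental libraries had 92.0, 101 and 80.7 TPM, and isoform 2 had 179.1, 193.8 and 169.4 TPM, 1.97 times as much with no overlap. On the log2 scale MSMO1 was 0.98 ± 0.13 higher in isoform 2 (limma adjusted p = 1.14e-07). In isoform 1 it was 137.6, 173 and 160.3 TPM, 0.78 ± 0.13 higher (limma adjusted p = 4.64e-06). In isoform 4 MSMO1 was 138.4, 168.9 and 152.5 TPM, a log2 fold change of 0.74 ± 0.13 (limma adjusted p = 8.67e-05). In isoform 12 it was 141, 156 and 148 TPM (log2 fold change 0.70 ± 0.13, limma adjusted p = 0.000202). In isoform 10 it was 144, 155 and 120.3 TPM (log2 fold change 0.61 ± 0.13, limma adjusted p = 0.000323). Every MSMO1 library of isoforms 1, 4, 12 and 10 lay above every parental library.

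Isoform 3 was less even for MSMO1. Replicate 1, the library with less HNF4A, had 107.3 TPM and replicates 2 and 3 had 158.5 and 164.6 TPM, and the log2 fold change was 0.63 ± 0.13 (limma adjusted p = 0.000415). Isoform 3 had 1 called gene with all libraries, 3 without its replicate 1 and 4 without parental replicate 2. MSMO1 was lowest in isoform 7, at 89.7, 98.3 and 80.0 TPM, which overlaps the parental libraries. In isoform 5 MSMO1 was 96.7, 108 and 91.2 TPM and its log2 fold change of 0.12 ± 0.13 did not pass.

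DHCR7, which removes the last double bond on 1 route to cholesterol, was 165.3, 172.4 and 161.5 TPM in the parental libraries. It was 241.9, 252.7 and 243.9 TPM in isoform 1, a log2 fold change of 0.56 ± 0.05 (limma adjusted p = 3.88e-11), and it was called there. In isoform 5 DHCR7 was 121.5, 127 and 114 TPM, its lowest values, with a log2 fold change of -0.46 ± 0.05 (limma adjusted p = 9.55e-08). EBP, the sterol isomerase, was 156.5, 163 and 150.6 TPM in the parental libraries, 121.7, 130.3 and 120.0 TPM in isoform 5 and 211.5, 230.6 and 213.5 TPM in isoform 3. Its log2 fold changes were -0.34 ± 0.05 and 0.48 ± 0.05, and both passed.

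TM7SF2, a sterol C14 reductase, did not follow DHCR7 and EBP. It was 40.8, 44.8 and 45.7 TPM in the parental libraries, 53.4, 61.8 and 60.9 TPM in isoform 11 (log2 fold change 0.42 ± 0.10, limma adjusted p = 0.00184) and 37.1, 43.4 and 40.2 TPM in isoform 2, its lowest group, which overlaps the parental libraries. CYP51A1, the lanosterol demethylase, had a mean of 158 TPM in the parental cells, 126 in isoform 5 (log2 fold change -0.32 ± 0.07) and 200.3 in isoform 9 (0.34 ± 0.07). NSDHL, the partner of MSMO1 in C4 demethylation, had a mean of 72.2 TPM in the parental cells, 63.0 in isoform 5 (-0.20 ± 0.04) and 94.5 in isoform 11 (0.38 ± 0.04). NSDHL passed as higher in 9 lines and MSMO1 in 7.

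HSD17B7, the last enzyme of C4 demethylation, had a mean of 40.5 TPM in the parental cells, 33.0 in isoform 5 (log2 fold change -0.29 ± 0.04) and 49.4 in isoform 9 (0.28 ± 0.04). Its near-identical copy HSD17B7P2 was at 5.62 TPM in the parental cells, and reads of the pair may have been split between them. SC5D, the sterol C5 desaturase, had a mean of 36.1 TPM in the parental cells, ran from a log2 fold change of -0.03 ± 0.08 in isoform 5 to 0.34 ± 0.08 in isoform 11 and passed as higher in 5 lines, or in 9 after median-of-ratios scaling.

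The 5 regulators of SREBP passed as higher in 6 of 60 gene-line pairs and as lower in 13. The shares over the pairs of all genes were 12.8% and 17.9%. After median-of-ratios scaling the regulators passed as higher in 17 and lower in 5, where the shares were 20.1% and 12.9%. INSIG1 is a sterol-sensing anchor and itself an SREBP target. It was 94.0, 100.6 and 85.0 TPM in the parental libraries, 70.9, 72.8 and 59.9 TPM in isoform 5 and 118, 141 and 122 TPM in isoform 9. The log2 fold changes were -0.45 ± 0.10 (limma adjusted p = 0.00184) and 0.44 ± 0.10 (limma adjusted p = 0.00144), with no overlap with the parental libraries. INSIG2, its paralogue, had a mean of 13.3 TPM in the parental cells, ran from -0.14 in isoform 1 to 0.12 in isoform 12 and passed in no line.

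SREBF2 mRNA had a mean of 102 TPM in the parental cells and 100.7 TPM in isoform 5, a log2 fold change of -0.02 ± 0.05. It ran from -0.04 in isoform 8 to 0.18 in isoform 9, the 1 line where it passed, but passed as higher in 7 lines after median-of-ratios scaling. SREBF1 mRNA had a mean of 49.6 TPM in the parental cells and ran from -0.26 ± 0.05 in isoform 8 (limma adjusted p = 0.000115) to 0.17 ± 0.05 in isoform 4. SCAP, the SREBP escort, had a mean of 54.9 TPM in the parental cells, ran from -0.20 ± 0.04 in isoform 12 to 0.06 in isoform 1 and passed as lower in 9 lines. The SCAP result depends on the scale: after median-of-ratios scaling it passed as lower in 3 lines and as higher in 1.

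The 3 sterol-handling genes passed as higher in 4 of 36 gene-line pairs and as lower in 5, and after scaling in 7 and 4. These counts were near the shares of all genes, 12.8% and 17.9%, and after scaling 20.1% and 12.9%. MYLIP, the ubiquitin ligase that marks lipoprotein receptors for degradation, lay below the parental mean in all 12 lines. It was 7.04, 7.7 and 6.83 TPM in parental cells, against 4.67, 5.23 and 4.62 TPM in isoform 2, with no overlap (log2 fold change -0.49 ± 0.07, limma adjusted p = 6.13e-07). It was closest to the parental level in isoform 4, at 7.35, 7.06 and 6.85 TPM. MYLIP passed as lower in 5 lines, isoforms 1, 2, 7, 8 and 11, and in 4 after scaling, where its values ran from -0.39 to 0.04. STARD4, a cytosolic sterol carrier, had a mean of 41.9 TPM in the parental cells, ran from -0.08 in isoform 7 to 0.31 in isoform 12 and passed in that line, or in 3 lines after scaling. SOAT1, which esterifies cholesterol for storage, had a mean of 29.3 TPM in the parental cells, ran from 0.00 in isoform 2 to 0.27 in isoform 10 and passed as higher in 3 lines.

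The fatty acid enzymes passed as higher in 4 and as lower in 9 of 48 gene-line pairs, and after median-of-ratios scaling as higher in 12 and lower in 8. The shares of all genes were 12.8% and 17.9%, and after scaling 20.1% and 12.9%, so these counts lay near them. ACLY, which supplies cytosolic acetyl-CoA from citrate, had a mean of 248 TPM in the parental cells, 214 in isoform 5 (log2 fold change -0.21 ± 0.05) and 283 in isoform 11 (0.19 ± 0.05). FASN, fatty acid synthase, had a mean of 396 TPM in the parental cells and 316 in isoform 5 (log2 fold change -0.33 ± 0.08), reached 0.19 ± 0.08 in isoform 9 and passed as lower in 5 lines. SCD, the stearoyl-CoA desaturase, had a mean of 511 TPM in the parental cells, 402 in isoform 5 (log2 fold change -0.34 ± 0.07) and 618 in isoform 1 (0.27 ± 0.07). ACACA, acetyl-CoA carboxylase, had a mean of 41.55 TPM in the parental cells, ran from -0.21 in isoform 2 to 0.08 in isoform 9 and passed as lower in isoform 2, but in no line after that scaling.

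Isoform 5 had the lowest mean of the 13 groups for 19 of the 30 tested genes, while isoform 11 had the highest for 9 and isoform 9 for 6. Isoform 5 was therefore set directly against 5 other lines, a choice made after these values were seen: isoforms 4 and 6, which share its N-terminal form, and isoforms 2, 8 and 11, which share its C-terminal form. The differences in these contrasts do not use the parental libraries, which entered only the shared estimate of the spread. With no minimum difference, 18 of the 30 genes were lower in isoform 5 than in isoform 4 and 0 higher, while 2.12% of all genes were lower and 7.95% higher. Against isoform 6, 13 were lower (8 without isoform 6 replicate 2) and 0 higher, while 1.72% of all genes were lower and 2.95% higher. Against isoform 2, 18 were lower and 3 higher, while 18.1% of all genes were lower and 35.8% higher. Against isoform 8, 19 were lower and 2 higher, while 19% of all genes were lower and 22.8% higher. Against isoform 11, 20 were lower and 2 higher, while 15.2% of all genes were lower and 27.9% higher.

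At a log2 difference of at least 0.5, isoform 5 was lower than isoform 4 for 4 genes, MSMO1 (-0.63), HMGCS1 (-0.69), ACAT2 (-0.50) and INSIG1 (-0.51), where 0.347% of all genes were called lower. Against isoform 6 no gene reached that size, where 0.22% of all genes were called lower. At an unadjusted limma p under 0.05 there were 16 of the 30, where 16.7% of all genes were under that p. Against isoforms 2, 8 and 11 there were 9, 10 and 13 such genes, where 5.83%, 2.86% and 3.15% of all genes were called lower. No pathway gene was called higher in any of the 5 contrasts, where 1.75%, 0.56%, 10.9%, 6.15% and 7.75% of all genes were called higher against isoforms 4, 6, 2, 8 and 11. The count against isoform 4 was 8, 2 or 3 without 1 or another of the isoform 4 libraries. It was 3, 5 or 2 without 1 or another of the isoform 5 libraries, which were given no numbers here. That against isoform 6 was 2 without 1 of the isoform 5 libraries or isoform 6 replicate 3, and 1 without isoform 6 replicate 1. MVD showed the largest difference from isoform 11, a fall of 0.98 on the log2 scale, and HMGCS1, INSIG1, ACAT2 and MVK fell by 0.79, 0.82, 0.87 and 0.89.

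The isoforms combine N-terminal forms (isoforms 1-3, 4-6, 7-9 and 10-12) with C-terminal forms (1, 4, 7 and 10; 2, 5, 8 and 11; 3, 6, 9 and 12), by the standard nomenclature. An additive limma model on the 12 line means, with 6 residual degrees of freedom, compared these classes with each line as 1 unit. Isoforms 4-6 were lower than isoforms 1-3 for 3 called genes of 30, near the 10.6% of all genes called in either direction. DHCR7 was lower by a log2 difference of -0.69 ± 0.10 (limma adjusted p = 0.00266), MVK by -0.54 ± 0.12 (limma adjusted p = 0.0103) and MVD by -0.55 ± 0.15 (limma adjusted p = 0.0229). With no minimum, 9 genes were lower and 0 higher, while 12.6% of all genes were lower and 22.1% higher. These were ACAT2, MVK, PMVK, MVD, FDPS, NSDHL, EBP, DHCR7 and SCD. DHCR7 was called without any 1 of the 12 lines. Without isoform 5 neither MVK nor MVD was called. The difference of MVK was -0.38 (limma adjusted p = 0.0351), below the minimum difference, and that of MVD -0.40 (limma adjusted p = 0.109). MVD was also not called without isoform 1, 2 or 3 (limma adjusted p = 0.0833, 0.056 and 0.0608).

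Isoforms 7-9 were higher than isoforms 4-6 for 1 called gene, MVD, by 0.56 ± 0.15 (limma adjusted p = 0.0394), where 5.72% of all genes were called. Without isoform 5 the MVD difference was 0.40 and the limma adjusted p 0.175, and it was also not called without isoform 1, 2, 4, 7, 8 or 9. With no minimum, MVK, MVD, IDI1, NSDHL, SC5D, DHCR7 and INSIG1 were higher and SREBF1 was lower (-0.23 ± 0.07, limma adjusted p = 0.0498), while 8.16% of all genes were higher and 8.7% lower. Against isoforms 1-3, isoforms 7-9 were lower for MSMO1, by -0.66 ± 0.17 (limma adjusted p = 0.041), where 2.93% of all genes were called. MSMO1 was not called without isoform 1, 2, 7, 8, 9 or 10. PMVK was lower in the same contrast by -0.41 ± 0.07 (limma adjusted p = 0.0137), below the minimum difference.

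No pathway gene was called by limma between isoforms 10-12 and 7-9, or between the C-terminal forms, where 0% or 0.0133% of all genes were called. At an unadjusted p under 0.05 the counts were 4 between isoforms 10-12 and 7-9 (7.55% of all genes), 0 for isoforms 2, 5, 8 and 11 against 1, 4, 7 and 10 (3.03%) and 1 for isoforms 3, 6, 9 and 12 against the others (18.2%).

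**Figure D4:**
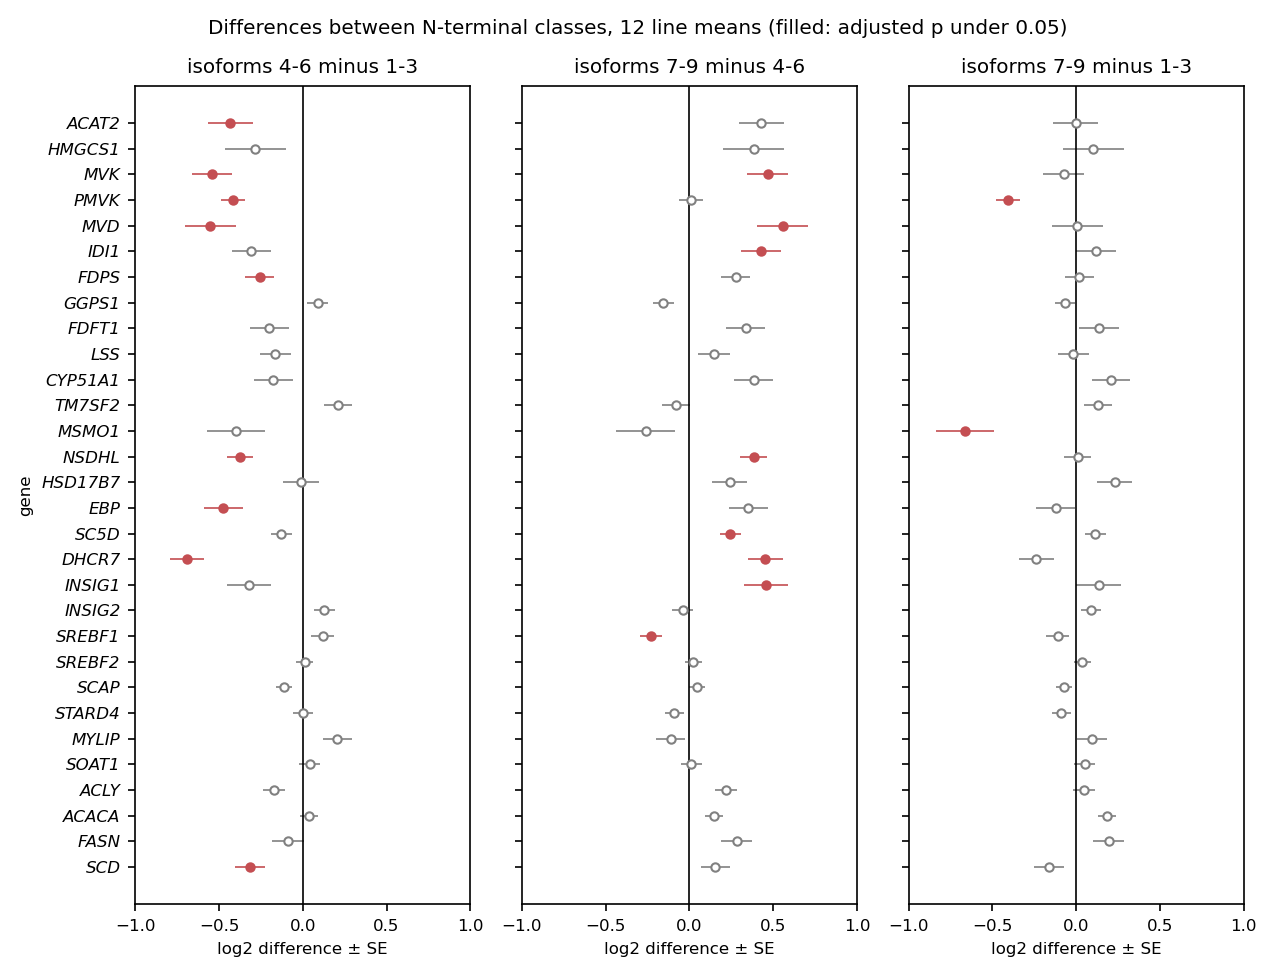
Log2 differences ± SE between N-terminal classes for the 30 tested genes, from the model on 12 line means; filled red points have a limma adjusted p under 0.05. Isoforms 4-6 lie below isoforms 1-3 for DHCR7 (-0.69), MVD (-0.55) and MVK (-0.54), and the main difference of isoforms 7-9 from 1-3 is MSMO1 (-0.66). With the minimum difference, pathway genes were called about as often as all genes in these contrasts, or less often.

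Over the 13 group means many of these genes varied together. Pearson's r on log2(TPM + 1) had a median of 0.28 over the 435 pairs of genes, and 83 pairs (19.1%) had an r of at least 0.8. Over all pairs of the 15003 tested genes the median was 0.06, and 3.11% had an r of at least 0.8. Without isoform 5 the median was 0.25 and 48 pairs remained at that level. Of the 30 genes, 15 had a median r with the others of at least 0.6: ACAT2, HMGCS1, MVK, MVD, IDI1, FDPS, FDFT1, LSS, CYP51A1, NSDHL, EBP, SC5D, DHCR7, INSIG1 and ACLY. These 15 were picked by that measure. The closest pairs included ACAT2 with FDPS, IDI1 with INSIG1 and FDFT1 with CYP51A1, each at 0.97. The group means share libraries and the total to which TPM is scaled, so these values are a description.

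MSMO1 stood outside this set, with a median r of 0.05, and its closest gene was PMVK at 0.72. SREBF2 had a median r of 0.41 with the other genes and SREBF1 -0.34. GGPS1 had the lowest median r, -0.53, and was most opposed to HMGCS1 at -0.75. ACACA and FASN were closest to each other, at 0.74.

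**Figure D5:**
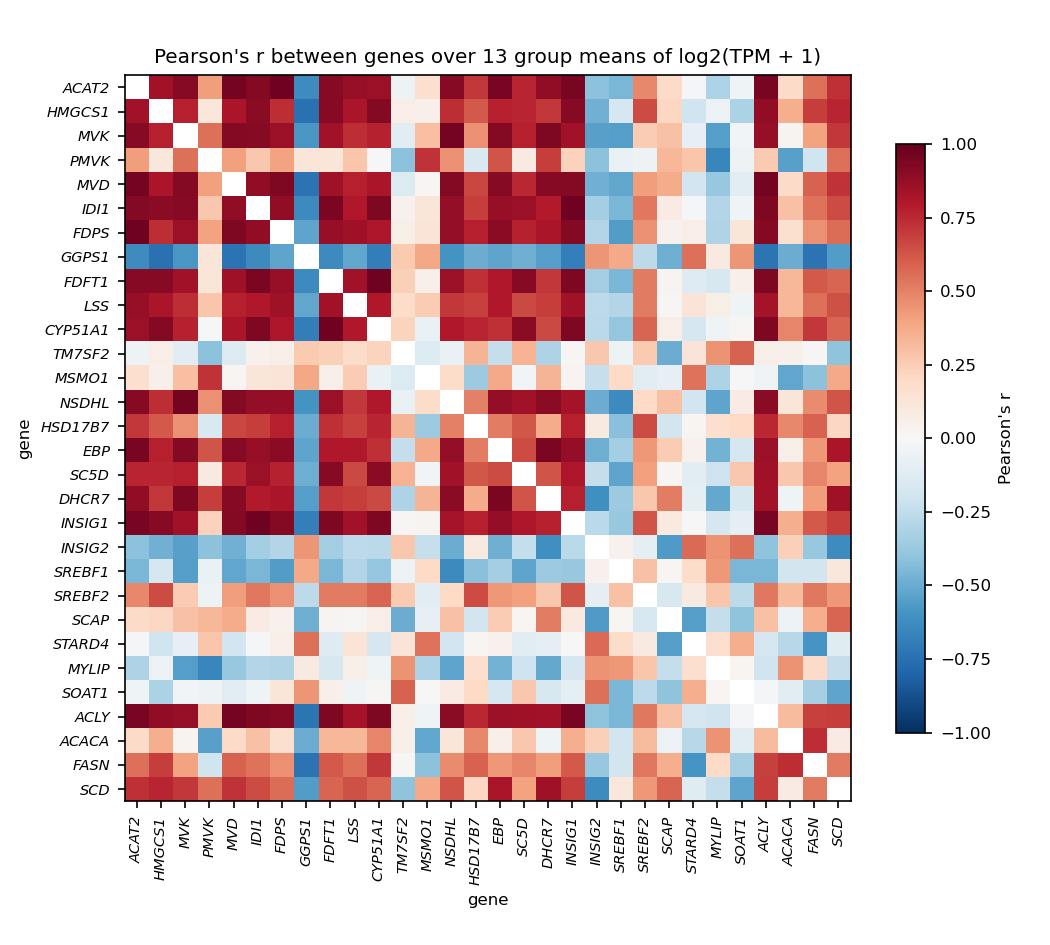
Pearson's r between each pair of the 30 tested genes over the 13 group means of log2(TPM + 1); red is positive, blue negative, and the diagonal is blank. The 15 co-varying genes form the dark red rows, while the rows of GGPS1, MSMO1, TM7SF2, INSIG2, SREBF1 and MYLIP stay apart.

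Other genes of sterol and lipid metabolism were taken from 4 lists of 43 genes. Of 8 genes that process SREBPs or sense sterols none was called. Of their 96 gene-line pairs 3 passed as higher and 25 as lower, where 12.8% and 17.9% of all pairs did. Of 12 tested further lipid genes of the SREBP programme, 6 were called in at least 1 line, of 8 tested sterol transport genes 1 and of 11 tested genes of the isoprenoid branch and electron supply 2. Over all tested genes 28% were called in at least 1 line. SLC25A1, the mitochondrial citrate carrier that feeds ACLY, was called higher in 8 lines (isoforms 1, 2, 3 and 7 to 11). It was 182, 184 and 179.9 TPM in the parental libraries, 403, 397 and 411 TPM in isoform 1 (log2 fold change 1.14 ± 0.05, limma adjusted p = 4.21e-18) and 183, 197 and 187 TPM in isoform 5 (0.05 ± 0.05). In the class model SLC25A1 was lower in isoforms 4-6 than in 1-3 by -0.78 ± 0.08 (limma adjusted p = 0.000688).

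NPC2, which carries cholesterol out of lysosomes, was called higher in 7 lines (isoforms 1, 3 and 7 to 11). It was 127, 136 and 131 TPM in parental cells, against 277, 249.9 and 258 TPM in isoform 8, a log2 fold change of 0.99 ± 0.06 (limma adjusted p = 3.78e-13), and its lowest fold change was 0.13 in isoform 4. ELOVL6, which elongates saturated fatty acids, was called lower in isoforms 1 and 2, at 21.9, 22.8 and 23.1 TPM in isoform 1 against 41.9, 48.7 and 43.6 TPM in the parental libraries (log2 fold change -0.95 ± 0.05, limma adjusted p = 1.93e-15). ACACB, the mitochondrial acetyl-CoA carboxylase, and FNTB, a subunit of protein farnesyltransferase, were called lower in the same 2 lines, by -0.66 and -0.64 in isoform 1. TMEM97 and ELOVL5 were called lower in isoform 1 (-0.56 each), and CYB5R3, an electron donor of the sterol oxidases, was called higher in isoform 2 (0.52).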

How the data were processed

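Poly(A) RNA of 39 libraries was sequenced, per the labels' protocols. The submitters' processing notes name Trimmomatic 0.36, FastQC 0.11.5, kallisto 0.44.0 and DESeq2 1.22.2 with GRCh38.p12, with no role or order given. The authors deposited 13 tables of 45446 rows with TPM per library. For each line the authors also deposited their comparison with the parental cells: per the file headers, a mean of normalised counts (a signal), a log2 fold change with its SE, the test statistic (a score) and p-values, raw and adjusted. These columns entered no fit. TPM keeps no read depth, so no counting interval could be given. The 12 rows of HNF4A isoforms were summed. In 29 rows of the isoform 4 and 5 tables the names differ from the other tables, none of them a pathway gene.

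Linear models were fitted with limma 3.58.1 (R 4.3.3; eBayes, trend on) to log2(TPM + 1), which understates changes of low genes. All 13 groups entered, leaving 26 residual degrees of freedom. Genes averaging 1 TPM or more entered, p-values were adjusted by Benjamini-Hochberg over all 15003 genes within a comparison, and the median residual SD was 0.094. The scripts were tested on simulated data. The labels give isoforms 4 and 5 the same library name 3 times, although their deposited columns are numbered. Those columns could not be matched to single labels, so the libraries were grouped and given no number. The genes, the lists and the classes were chosen with earlier results of these data known, and the direct contrasts of isoform 5 after its values were seen. All pathway genes are described. Values are given library by library for up to 12 of them, those called in the most lines and then those with the largest fold change, and for a few more. Of the other lipid genes the 8 called in the most lines are named. Alternatives were a pseudocount of 0.1, a filter of 5 TPM or none, median-of-ratios scaling, eBayes without trend, fits of the compared groups only, other minimum fold changes, and leaving out each library or line.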

Additional observations from a re-analysis of the deposited data

Results flagged for a closer look

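Between N-terminal classes, the effects on 4 genes differed by the test of the difference itself in the limma model on 12 line means. From isoforms 1-3 to 4-6 the log2 differences were -0.69 for DHCR7, -0.54 for MVK and -0.55 for MVD. MSMO1 differed by -0.66 between isoforms 7-9 and 1-3, and MVD by 0.56 between isoforms 7-9 and 4-6. In these 3 contrasts 3, 1 and 1 of the 30 pathway genes were called. Over all genes, 10.6%, 2.93% and 5.72% were called in them, in either direction. The pathway genes were thus called about as often as all genes, or less often. Without the isoform 5 line, MVK and MVD were no longer called in these contrasts. MVK then kept a limma adjusted p of 0.0351 but fell below the minimum difference. MVD was also lost between isoforms 4-6 and 1-3 without isoform 1, 2 or 3. Between isoforms 7-9 and 4-6 it was lost without isoform 1, 2, 4, 7, 8 or 9. MSMO1 was not called without isoform 1, 2, 7, 8, 9 or 10.

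The direct contrasts of isoform 5, chosen after its values were seen, called 4 pathway genes lower than in isoform 4, 9 lower than in isoform 2, 10 lower than in isoform 8 and 13 lower than in isoform 11 (limma, adjusted p under 0.05 and a log2 difference of at least 0.5). Over all genes, 0.347%, 5.83%, 2.86% and 3.15% were called lower in these 4 contrasts. Against isoform 6 no pathway gene was called. SREBF2 mRNA differed from the parental cells in isoform 5 by a log2 fold change of -0.02 ± 0.05, and SREBF1 mRNA by 0.08 ± 0.05.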

How the results depend on the processing

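Counts of called genes rest on the minimum fold change. With a minimum log2 fold change of 1, 0 genes were called in every line, in every direct contrast of isoform 5 and in every class contrast. This holds for TPM as deposited with all libraries. MSMO1 in isoform 2 was 1.10 after median-of-ratios scaling and 1.06 without parental replicate 2. With no minimum, isoforms 1 to 12 had 14, 15, 13, 6, 19, 5, 17, 17, 18, 10, 22 and 11 called genes, isoform 5 against isoforms 4, 6, 2, 8 and 11 had 18, 13, 21, 21 and 22, and isoforms 4-6 against 1-3, 7-9 against 1-3 and 7-9 against 4-6 had 9, 2 and 8. With median-of-ratios scaling isoforms 1, 2, 3 and 11 had 5, 5, 4 and 5, isoform 5 had 9 against isoform 4 and 1 against isoform 6, and isoforms 4-6 against 1-3 had 5. The shares of all genes called on that scale were not worked out. With no filter on low values, the contrasts of isoforms 7-9 with 1-3 and with 4-6 had 0. The cause was not tested.

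Leaving out 1 library gave 2 to 3 called genes for isoforms 1 and 2, 1 to 4 for isoform 3, 1 to 3 for isoform 5, 0 to 1 for isoform 11, 1 to 1 for isoforms 4, 10 and 12, and 0 to 0 for isoforms 6 to 9. For isoform 5 the ranges were 2 to 8 against isoform 4, 0 to 2 against isoform 6, 8 to 10 against isoform 2, 10 to 11 against isoform 8 and 13 to 13 against isoform 11. Leaving out 1 line gave 1 to 6 for isoforms 4-6 against 1-3, 0 to 1 for 7-9 against 1-3, 0 to 3 for 7-9 against 4-6 and 0 to 0 for the other class contrasts. Of 148 alternative values of the called gene-line pairs, 134 stayed called, 14 were no longer called and 0 turned direction. Over all tested genes, same-numbered libraries had a median correlation of deviations of 0.05 over 165 pairs, 38 of them over 0.1. Over the 30 pathway genes it was 0.32 (-0.49 to 0.89), with 116 pairs over 0.1, against -0.16 for different numbers. As not every pair was over 0.1, the numbers were not taken to pair the libraries. The main fits therefore hold no term for the replicate number, although it moved with the pathway genes. A replicate block over the groups with numbers gave 2, 2, 1, 0, 0, 0, 0, 1, 1 and 1 called genes for isoforms 1, 2, 3 and 6 to 12, the same counts as without it. With no minimum, the block gave 17, 11, 15, 3, 15, 16, 18, 8, 20 and 12 genes higher and 2, 5, 0, 3, 2, 3, 1, 5, 3 and 2 lower for the same lines. The block was not fitted for isoforms 4 and 5 or for the direct contrasts of isoform 5. Libraries of isoforms 4 and 5 had been given no numbers, although their deposited columns are numbered.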
